A study of Mus musculus with 8 samples.

Results

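The 10 genes described here mark endothelial cells and the endocardium: Pecam1, Cdh5, Kdr, Flt1, Tek, Tie1, Emcn, Plvap, Eng and Apln. They were chosen by name from the 26590 gene symbols of the deposited table, and all 10 were found, in 23 transcript rows. For each gene the row with the highest average of both genotype means was used, and the other rows were checked beside it. RNA was sequenced, after removal of ribosomal RNA, from the fetal hearts of 4 Dio3+/+ and 4 Dio3-/- C57BL/6J mice, each sample from 1 fetus. Dio3 encodes the type 3 deiodinase, which inactivates thyroid hormones, and the Dio3-/- fetuses carry the null allele in every tissue, not in the heart alone. The allele was made on a 129/SVJ background and backcrossed to C57BL/6J. Sample titles give E13.5 for all hearts. For Dio3-/- hearts 3 and 4 the age field instead reads E18.5. The text of the study's methods names yet another day for the sequenced hearts as a whole. The age is therefore uncertain for all hearts, and most of all for Dio3-/- hearts 3 and 4. Dio3-/- hearts 3 and 4 could not be left out because the table holds only genotype summaries.

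Endothelial cells line blood vessels, and the endocardium is the endothelial layer that lines the heart chambers. At midgestation the endocardium takes part in trabeculation and valve formation, and a coronary plexus spreads through the ventricular wall. Endothelial cells sense vascular endothelial growth factors through Kdr (VEGFR2, the main signaling receptor) and Flt1 (VEGFR1, which also acts as a decoy), and angiopoietins through the receptor kinase Tek (TIE2) with its partner Tie1. Cdh5 (VE-cadherin) and Pecam1 (CD31) join neighboring endothelial cells, Eng (endoglin) is a coreceptor for ligands of the BMP9 and BMP10 type, Emcn (endomucin) is a sialomucin of capillaries, veins and endocardium, Plvap forms the diaphragms of endothelial fenestrae and caveolae, and Apln encodes the peptide apelin, a product of sprouting endothelium.

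Each row of the authors' table holds a mean per genotype, read here as RPKM (reads scaled to transcript length and library total), and a coefficient of variation (SD over mean). Values of single hearts and read totals were not used here, so the depth behind each value is unknown from the table and no heart can be shown on its own. Differences are given as the log2 difference, Dio3-/- minus Dio3+/+ on the log2(RPKM + 0.5) scale, with its standard error (SE), and adjusted P values are those of limma over all rows tested. Of the whole series, 336 of 14657 genes tested by their highest row passed an adjusted P value of 0.05. The Dio3 transcript averaged 0.35 RPKM in Dio3+/+ hearts and 0.13 RPKM in Dio3-/- hearts, too low to test and so no check of the genotype. Although the design text describes male hearts, Xist had means of 35.6 and 39.97 RPKM with coefficients of variation of 0.99 and 0.55, and the Y-linked Eif2s3y had means of 9.38 and 7.29 RPKM with coefficients of variation of 1.04 and 1.46. Such values are what a mix of male and female hearts in each genotype would give. No test was adjusted for sex, that of the X-linked Apln included. P values measure the spread between fetuses whose litters are not given.

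The marker genes were well expressed. By the average of the genotype means, Eng stood above 94.1% of the genes tested, Cdh5 above 93.8% and Plvap above 91.6%, while Apln, the lowest member, stood above 21.3%. All 10 were measured above 1 RPKM in both genotypes. In Dio3+/+ hearts the order of levels was Cdh5, Eng, Plvap, Pecam1, Emcn, Tek, Tie1, Kdr, Flt1 and Apln. In that order the ranges of mean ± SD overlapped for Cdh5 and Eng, for Emcn and Tek, and for Tek and Tie1, and the other neighbors were apart. In Dio3-/- hearts Eng stood before Cdh5 and Tek before Emcn, in both cases with overlapping ranges, and the rest of the order was as in Dio3+/+ hearts. Emcn and Tie1 overlapped there as well.

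**Figure D1:**
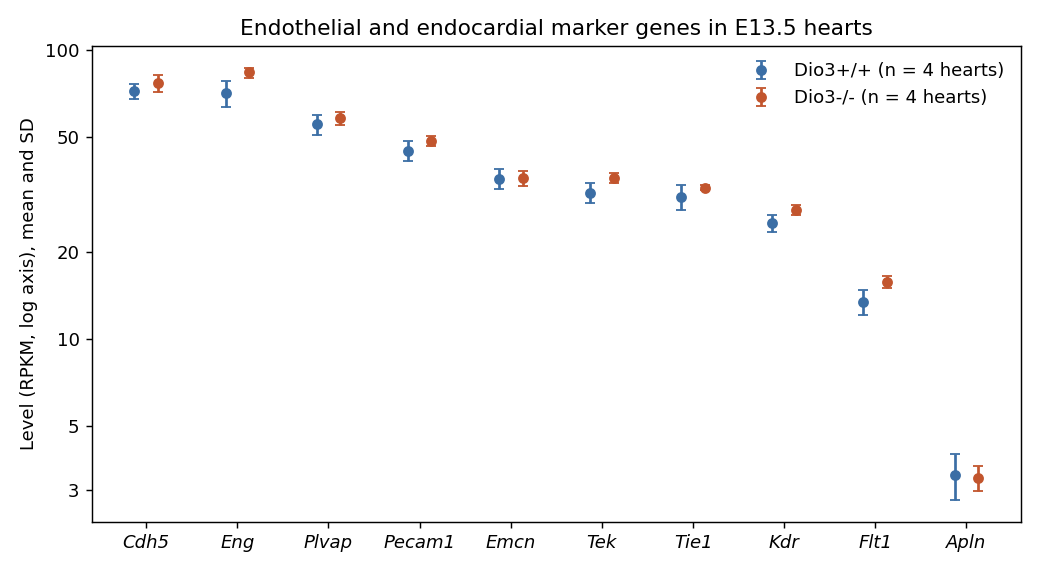
Level of each marker gene in RPKM (log axis) in Dio3+/+ (blue) and Dio3-/- (orange) hearts, as the mean of 4 hearts with its SD. The ranges of both genotypes overlap for 8 of the 10 genes and are apart for Eng and Flt1.

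None of the 10 marker genes passed the moderated test between the genotypes. Adjusted P values by limma went from 0.108 for Eng to 0.974 for Emcn. Of all genes tested, 2.29% passed in either direction and 1.91% passed with the higher level in Dio3-/- hearts. The mean was higher in Dio3-/- hearts for 9 of 10 members, as it was for 63.3% of all genes tested, and for 8 of 10 with the median log2 ratio of all rows set to 0, which turned Emcn. Without adjustment, 4 members (Eng, Flt1, Tek and Kdr) had a P value under 0.05, all with the higher mean in Dio3-/- hearts, and 15.2% of all genes did so in that direction. The median log2 difference of the members was 0.11, and that of all genes tested was 0.04. With the median ratio of all rows at 0, every log2 difference was lower by 0.04, which left Cdh5 at 0.05, Plvap at 0.03, Pecam1 and Tie1 at 0.07 each, Emcn at -0.03 and Apln at -0.06. Because whole hearts were profiled, fewer or more endothelial cells and less or more RNA per cell cannot be told apart in any of these values.

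The junction genes had small differences. Cdh5 had a level of 72.0 RPKM ± 4.32 (SD, n = 4) in Dio3+/+ and 76.5 RPKM ± 5.36 (SD, n = 4) in Dio3-/- hearts. Its mean was 6.34% higher in Dio3-/- hearts, a log2 difference of 0.09 ± 0.06 (SE, 95% interval -0.05 to 0.23). Pecam1 had 44.6 RPKM ± 3.57 (SD, n = 4) in Dio3+/+ and 48.2 RPKM ± 1.93 (SD, n = 4) in Dio3-/- hearts. The log2 difference was 0.11 ± 0.06 (SE, 95% interval -0.03 to 0.25). For both genes the ranges of the genotypes overlapped, and the upper end of the interval was a 1.17-fold difference for Cdh5 and a 1.19-fold difference for Pecam1.

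The VEGF receptors had somewhat larger differences. Kdr had 25.1 RPKM ± 1.76 (SD, n = 4) in Dio3+/+ and 27.9 RPKM ± 1.12 (SD, n = 4) in Dio3-/- hearts, and the ranges of mean ± SD overlapped narrowly. Its log2 difference was 0.15 ± 0.06 (SE, 95% interval 0.02 to 0.28, adjusted P = 0.207). Flt1 had 13.4 RPKM ± 1.34 (SD, n = 4) in Dio3+/+ and 15.7 RPKM ± 0.787 (SD, n = 4) in Dio3-/- hearts. Its mean was 17.2% higher in Dio3-/- hearts, and the ranges of the genotypes were apart. The log2 difference of Flt1 was 0.22 ± 0.07 (SE, 95% interval 0.06 to 0.39, adjusted P = 0.140).

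The angiopoietin receptors stood close to each other. Tek, which binds the ligand, had 32.1 RPKM ± 2.57 (SD, n = 4) in Dio3+/+ and 35.9 RPKM ± 1.44 (SD, n = 4) in Dio3-/- hearts, with a log2 difference of 0.16 ± 0.06 (SE, adjusted P = 0.198). Tie1, which binds no angiopoietin on its own and modulates Tek, had 31.0 RPKM ± 3.10 (SD, n = 4) in Dio3+/+ and 33.3 RPKM ± 0.667 (SD, n = 4) in Dio3-/- hearts. The log2 difference of Tie1 was 0.10 ± 0.07 (SE, adjusted P = 0.461). The ranges of the genotypes overlapped for both receptors.

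Eng had the largest difference among the members. Its level was 70.6 RPKM ± 7.06 (SD, n = 4) in Dio3+/+ and 83.3 RPKM ± 3.33 (SD, n = 4) in Dio3-/- hearts, 18.1% higher, and the ranges of the genotypes were apart. The log2 difference was 0.24 ± 0.07 (SE, 95% interval 0.08 to 0.40, adjusted P = 0.108), higher than that of 93.3% of all genes tested. With Flt1, Eng was 1 of 2 members whose ranges of mean ± SD did not overlap between the genotypes, which was the case for 15.5% of all genes tested.

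The surface proteins and apelin differed least. Plvap had 55.1 RPKM ± 4.41 (SD, n = 4) in Dio3+/+ and 57.9 RPKM ± 2.90 (SD, n = 4) in Dio3-/- hearts, a log2 difference of 0.07 ± 0.06 (SE). Emcn had 35.8 RPKM ± 2.86 (SD, n = 4) and 35.9 RPKM ± 2.16 (SD, n = 4), a log2 difference of 0.01 ± 0.07 (SE, 95% interval -0.14 to 0.16). Apln had 3.39 RPKM ± 0.610 (SD, n = 4) and 3.32 RPKM ± 0.332 (SD, n = 4), a log2 difference of -0.03 ± 0.12 (SE, 95% interval -0.29 to 0.24). The genotypes overlapped for all 3 genes. On the fold scale, the interval of Emcn reached from 0.905 to 1.11 and that of Apln from 0.819 to 1.18.

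**Figure D2:**
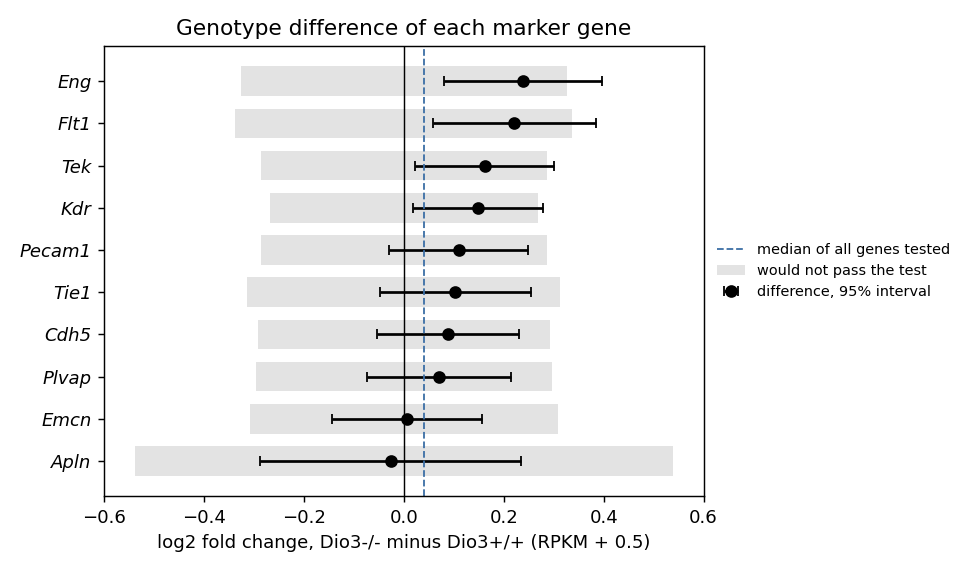
Log2 difference of each marker gene (Dio3-/- minus Dio3+/+, points) with its 95% interval, the median of all genes tested (dashed line, 0.04) and, in gray, the differences too small to pass the adjusted test. All 10 points lie inside the gray bars, with Eng and Flt1 nearest to their edge.

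At the spread of these hearts, a log2 difference of at least 0.27 for Kdr and up to 0.54 for Apln would have been needed to pass the adjusted test. For Eng this limit was 0.33 and for Flt1 0.34. These limits apply to observed differences with 4 hearts per genotype. How large a true difference could have been missed was not estimated.

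The transcript rows of a gene can share reads and are not independent. The choice of row made little difference, with 0 of 23 member rows called by limma, against 2.15% of all rows tested, and 9 of 23 with an unadjusted P value under 0.05 and the higher mean in Dio3-/- hearts, against 14.9% of all rows. Those 9 were repeats of 4 genes: 3 rows of Eng, 3 of Tek, 2 of Flt1 and 1 of Kdr. The 3 rows of Eng had log2 differences of 0.24 each, the 3 rows of Tek of 0.16 each, and the 4 rows of Pecam1 from 0.10 to 0.11. Kdr was the gene whose rows differed most in level among the receptors: the highest row stood at 25.1 RPKM in Dio3+/+ hearts and the others at 15.0 and 13.6 RPKM, with log2 differences of 0.13 and 0.11. The lower row of Flt1 had a mean 16.8% higher in Dio3-/- hearts, a log2 difference of 0.21. Emcn had a row at 5.53 and 5.41 RPKM, far below the other rows at 35.8 and 33.7 RPKM in Dio3+/+ hearts, and its log2 difference was -0.03.

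The hearts of a genotype resembled each other in these genes. Coefficients of variation went from 0.06 to 0.18 in Dio3+/+ and from 0.02 to 0.10 in Dio3-/- hearts, with medians of 0.08 and 0.045. Over all genes tested the medians were 0.09 and 0.06. Dio3-/- hearts had the smaller coefficient for 9 of 10 members, Cdh5 being the exception, as they did for 65.4% of all genes tested. As a ratio, Tie1 had the largest contrast among the members, with 0.10 in Dio3+/+ and 0.02 in Dio3-/- hearts. Apln, the gene with the lowest level, had the largest coefficient in both genotypes, 0.18 and 0.10.

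**Figure D3:**
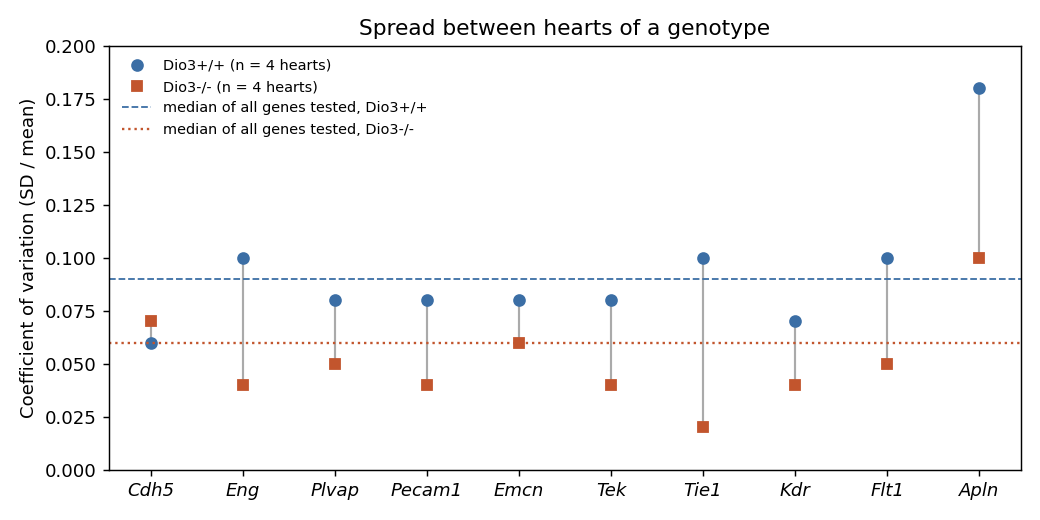
Coefficient of variation of each marker gene among the 4 Dio3+/+ hearts (blue circles) and the 4 Dio3-/- hearts (orange squares), with the medians of all genes tested as lines (0.09 and 0.06). The orange square lies below the blue circle for every gene except Cdh5.

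Upstream windows of 250 bases were available from RefSeq (GRCm38.p6) for 7 of the 10 genes, and 3 are shown, chosen after the values were seen: that of Eng, the member with the largest difference, and those of Emcn and Apln, with the smallest. Factors of the ETS family, which drive many endothelial genes, bind sites with the core GGAA, and nuclear receptors, thyroid hormone receptors among them, bind half-sites of the letters AGGTCA. Capitals mark AGGAAG and AGGTCA on either strand (on the reverse strand they read CTTCCT and TGACCT). The windows end just before the start site. Eng is at chr2:32646345-32646594 on the plus strand, Emcn at chr3:137340828-137341077 on the plus strand and Apln at chrX:48034854-48035103 on the minus strand.
Eng: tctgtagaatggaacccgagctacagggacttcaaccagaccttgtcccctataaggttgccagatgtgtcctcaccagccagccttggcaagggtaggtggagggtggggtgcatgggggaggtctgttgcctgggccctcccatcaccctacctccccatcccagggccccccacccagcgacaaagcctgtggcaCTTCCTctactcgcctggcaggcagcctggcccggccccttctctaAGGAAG
Emcn: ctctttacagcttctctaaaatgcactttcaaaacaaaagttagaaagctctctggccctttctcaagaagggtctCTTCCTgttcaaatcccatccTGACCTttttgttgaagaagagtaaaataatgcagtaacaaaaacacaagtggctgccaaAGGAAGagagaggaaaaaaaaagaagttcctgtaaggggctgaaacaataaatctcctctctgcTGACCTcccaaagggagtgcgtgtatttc
Apln: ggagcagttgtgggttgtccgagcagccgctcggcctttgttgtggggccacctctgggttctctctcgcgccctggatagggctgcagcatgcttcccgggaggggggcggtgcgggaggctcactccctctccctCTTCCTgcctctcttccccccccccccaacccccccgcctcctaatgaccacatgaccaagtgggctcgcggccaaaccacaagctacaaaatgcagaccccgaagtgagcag

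AGGAAG was found in 5 of the 7 windows (Eng, Emcn, Flt1, Tie1 and Apln) and in 29.5% of all 32851 windows of the same length. AGGTCA was found in 1 of the 7, that of Emcn, where it occurred at 2 places, and in 14.0% of all windows. Any relation of the matches to the genotype differences was not tested. These matches describe the letters of the windows and not sites used in the heart, and the genome build of the table is not given in the sources used here.

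Of the genes that act with the members, 15 ligands, coreceptors and regulators were examined, of which 14 were high enough to test. Of these, 2 rose in Dio3-/- hearts by limma and 0 fell, beside 1.91% of all genes called higher and 2.29% called in either direction. The partners, like the other lists, were chosen with earlier results of these data known. Vegfa, the ligand of Kdr and Flt1, rose from 22.6 RPKM ± 0.679 (SD, n = 4) to 31.6 RPKM ± 1.58 (SD, n = 4), 39.6% higher, and the ranges were far apart. Its log2 difference was 0.47 ± 0.05 (SE, 95% interval 0.36 to 0.58, adjusted P = 0.0023). Ptprb (VE-PTP), the endothelial phosphatase that acts on Tek and on the VE-cadherin complex, rose from 6.33 RPKM ± 0.380 (SD, n = 4) to 8.49 RPKM ± 0.425 (SD, n = 4). Its log2 difference was 0.40 ± 0.06 (SE, adjusted P = 0.0127 by limma). The call of Vegfa held in 9 of 9 alternatives and that of Ptprb in 8 of 9, being lost without moderation of the variances (adjusted P = 0.0705).

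The remaining partners did not pass. Among VEGF family ligands, Vegfb had a log2 difference of 0.15 ± 0.09 (SE), Vegfc of 0.01 ± 0.06 (SE) and Pgf, a ligand of Flt1, of -0.24 ± 0.11 (SE). The VEGF coreceptor Nrp1 had a log2 difference of 0.10 ± 0.06 (SE), and Nrp2 of -0.47 with a standard error of 0.32. Angpt1, the activating ligand of Tek, had means of 23.6 and 21.7 RPKM, a log2 difference of -0.12 ± 0.05 (SE, adjusted P = 0.232), and Angpt2, the context-dependent ligand, had 1.52 and 2.04 RPKM, a log2 difference of 0.33 ± 0.20 (SE). The apelin receptor Aplnr had means of 8.43 and 8.72 RPKM, which is above the level of Apln in both genotypes. Around Eng, the ligand Bmp10 had a log2 difference of -0.17 ± 0.10 (SE), the receptors Acvrl1 (ALK1), Bmpr2 and Tgfbr2 had values of 0.10, 0.09 and -0.08, and the ligand Gdf2 (BMP9) was at 0.17 and 0.26 RPKM and was not tested.

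A further 6 lists of endothelial genes, for cells of all vessels, transcription factors, endocardium, capillaries, arteries, and veins with lymphatics, were read in the same way. With the partners they held 89 genes, of which 87 were tested, 6 rose and 0 fell, beside 2.29% of all genes called in either direction and 1.91% called higher, and their median log2 difference was 0.10. The 6 include Car4, which passed the expression limit only in Dio3-/- hearts. Over the 9 alternatives of the processing the number called went from 1 to 6. Of the 25 genes of all vessels, 24 had the higher mean in Dio3-/- hearts and 0 passed by limma, although 13 had an unadjusted P value under 0.05, all with the higher mean in Dio3-/- hearts. Over all genes tested these shares were 63.3% for the higher mean and 15.2% for the unadjusted P value in that direction. The median log2 difference of that list was 0.14, and its most highly expressed genes were Ramp2, an adrenomedullin receptor component, at 0.05 ± 0.07 (SE), and Plxnd1, a semaphorin receptor, at 0.11 ± 0.05 (SE). Of 15 transcription factors tested, 0 passed by limma and 3 had an unadjusted P value under 0.05. Of these 3, 1 had the higher and 2 the lower mean in Dio3-/- hearts. Over all genes tested, 2883 of 14657 had such a P value in either direction. The most highly expressed factors, Ets1 and Elk3, had log2 differences of 0.22 ± 0.05 (SE) and 0.07 ± 0.05 (SE).

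Genes of vessel subtypes gave the other calls. Of all genes tested, limma called 1.91% higher and 2.29% in either direction. An unadjusted P value under 0.05 with the higher mean in Dio3-/- hearts was found for 15.2%. In the endocardial list 1 of 10 genes rose: Hapln1, which links hyaluronan in the matrix of the cushions, from 23.5 to 29.1 RPKM, a log2 difference of 0.30 ± 0.06 (SE, adjusted P = 0.0392). Npr3, a natriuretic peptide clearance receptor of the endocardium, had a value of 0.06 ± 0.06 (SE). Among 8 capillary genes 2 rose: Aqp1, a water channel, from 11.7 to 15.3 RPKM, a log2 difference of 0.38 ± 0.05 (SE, adjusted P = 0.0070), and Car4, a membrane carbonic anhydrase, from 0.84 to 1.53 RPKM, a log2 difference of 0.60 ± 0.11 (SE, adjusted P = 0.0330). Car4 was below the limit of 1 RPKM in Dio3+/+ hearts and was tested only through its Dio3-/- mean. Lpl and Fabp4, both of lipid handling, had values of 0.13 ± 0.07 (SE) and 0.12 ± 0.27 (SE). Of 9 arterial genes 0 passed by limma and 1 had an unadjusted P value under 0.05, with Gja5 at 0.13 ± 0.07 (SE) and Efnb2 at -0.13 ± 0.09 (SE). Of 8 venous and lymphatic genes 1 rose, Nts, which encodes the peptide neurotensin and is on the list for its use as a lymphatic marker, from 5.77 to 9.95 RPKM, a log2 difference of 0.74 ± 0.15 (SE, adjusted P = 0.0463). Ephb4 and Prox1 had values of 0.01 ± 0.09 (SE) and 0.08 ± 0.08 (SE). The calls of Hapln1 and Nts held in 4 of 9 alternatives of the processing and that of Car4 in 6 of 8, and that of Aqp1 was lost without moderation of the variances (adjusted P = 0.0697).

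**Figure D4:**
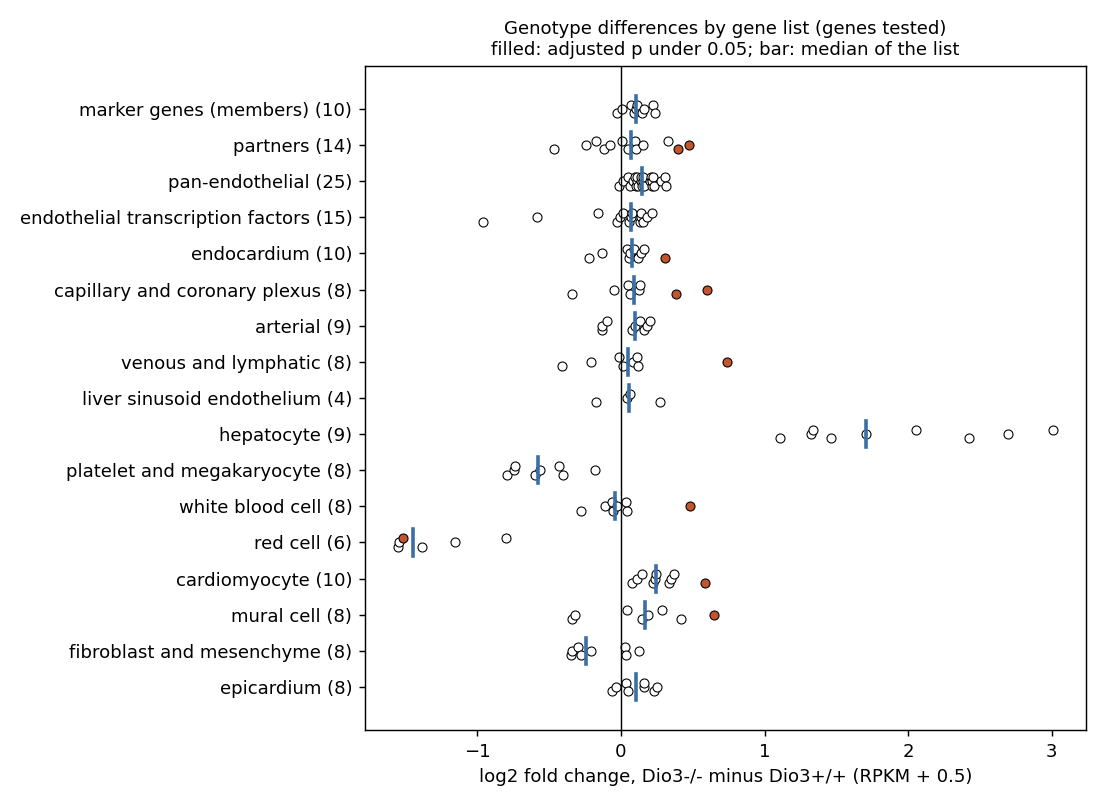
Log2 difference (Dio3-/- minus Dio3+/+) of each gene tested, by list, with the number tested in parentheses, calls at an adjusted P value under 0.05 as filled points and the median of the list as a bar. The 10 marker genes hold no filled point and lie between -0.03 and 0.24, while the hepatocyte list lies far to the right and the red cell list far to the left.

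Genes of other cell types that a dissected heart can hold also differed in mean between the genotypes, and their part in the endothelial values was not tested. Of the 14657 genes tested, 9273 had the higher and 5295 the lower mean in Dio3-/- hearts. By limma, 2229 had an unadjusted P value under 0.05 with the higher mean and 654 with the lower mean, and 2.29% passed after adjustment. All 9 hepatocyte genes had higher means in Dio3-/- hearts (summed level 23.8 RPKM in Dio3+/+ and 125.6 RPKM in Dio3-/-), with 0 called by limma and 9 with an unadjusted P value under 0.05. The highest of them, Afp, encoding alpha-fetoprotein, had 5.11 and 44.6 RPKM with SDs above the means. Without moderation of the variances, only 1 of the 9 hepatocyte genes had an unadjusted P value under 0.05. Coefficients of variation in the hepatocyte list had medians of 0.86 in Dio3+/+ and 1.05 in Dio3-/- hearts. Ttr, Ahsg and Fgb, at 0.65, 0.89 and 0.32 RPKM in Dio3+/+ hearts, were tested only through their Dio3-/- means. Of the genes of liver sinusoidal endothelium, which could come with liver tissue, 0 of 4 tested passed by limma and 1 had an unadjusted P value under 0.05. That gene, Oit3, had 1.93 and 2.44 RPKM, a log2 difference of 0.27 ± 0.09 (SE, adjusted P = 0.129), with the ranges of the genotypes apart. Stab2 was at 0.16 and 0.28 RPKM and Fcgr2b at 0.19 and 0.31 RPKM, both too low to test. Stab1, at 14.1 and 14.6 RPKM, had a log2 difference of 0.04 ± 0.06 (SE) and made up most of the summed level of the list, 22.8 and 23.5 RPKM. The 6 red cell genes measured had lower means in Dio3-/- hearts (summed level 37274 and 12746 RPKM), all with an unadjusted P value under 0.05. The highest, the embryonic globin Hbb-y, had a log2 difference of -1.55 ± 0.40 (SE, adjusted P = 0.0751), and the embryonic globin Hbb-bh1 fell, with a log2 difference of -1.51 ± 0.32 (SE, adjusted P = 0.0468). All 8 platelet and megakaryocyte genes, cells that also carry Pecam1, had lower means in Dio3-/- hearts (44.9 and 28.0 RPKM), with 0 called by limma and 6 with an unadjusted P value under 0.05, and Pf4, the highest of them, had a log2 difference of -0.74 ± 0.21 (SE). In the white blood cell list, Lyz2 rose by 0.48 ± 0.08 (SE, adjusted P = 0.0214) and the median was -0.04 (61.7 and 63.9 RPKM summed).

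Of the heart's other tissues, all 10 cardiomyocyte genes had higher means in Dio3-/- hearts (9970 and 11691 RPKM summed), beside 63.3% of all genes tested. The median log2 difference of the cardiomyocyte list was 0.24, beside 0.11 for the endothelial markers and 0.04 for all genes tested. By limma, 2.29% of all genes passed and 15.2% had an unadjusted P value under 0.05 with the higher mean in Dio3-/- hearts. Cardiac actin, Actc1, the highest of the cardiomyocyte genes, had 0.24 ± 0.11 (SE, adjusted P = 0.266). Ryr2, the calcium release channel, passed at 0.59 ± 0.10 (SE, adjusted P = 0.0231). Among mural cell genes, Abcc9, a potassium channel subunit also found in cardiomyocytes, rose by 0.65 ± 0.08 (SE, adjusted P = 0.0060), and the list's median was 0.16 (607 and 738 RPKM summed). Smooth muscle actin, Acta2, the highest of that list, had 0.29 ± 0.08 (SE, adjusted P = 0.0877). In the fibroblast list 0 of 8 genes passed by limma, none had an unadjusted P value under 0.05, and the median was -0.24 (857 and 756 RPKM summed), with coefficients of variation of up to 0.55 in Dio3+/+ hearts. Its highest gene, the collagen Col3a1, had -0.21 ± 0.23 (SE). In the epicardial list 0 of 8 passed by limma and 2 had an unadjusted P value under 0.05, with a median of 0.10 (120 and 129 RPKM summed) and its highest gene, Upk3b, at 0.03 ± 0.07 (SE). No gene measured in these lists was at 0 in either genotype.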

How the data were processed

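Total RNA of whole fetal hearts was sequenced as single-end reads. The authors, with a sequencing company, aligned reads with Novoalign (version 2.08, per the labels) after FastQC, kept uniquely mapping reads and scaled each sample linearly. The genome build is not given in the sources used here. The deposited table has 51414 rows, each a UCSC known-gene transcript, with the authors' mean per genotype, read as RPKM from the expression limit in the methods, since the table names no unit. The coefficient of variation, a ratio, was also deposited by the authors. The authors' fold changes and q values were not used. Read depth per sample is not part of the table.

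The design had foreseen values for single hearts. From the summaries, log2(mean + 0.5) was compared with an SD derived from the coefficient of variation, with 6 residual and 3.52 prior degrees of freedom, by limma (version 3.58.1, R 4.3.3) with a mean-variance trend. Benjamini-Hochberg adjustment covered the 32703 rows whose mean exceeded 1 RPKM in either genotype. The log2 scale with a pseudocount understates changes of low genes. The procedure was tested on simulated data. Alternatives were other pseudocounts, filters and variance models, 1 row per gene, centring, and Welch's test. Members and lists were chosen with earlier results of these data known. All members were named, with all partners, and of each other endothelial list those called at an adjusted P value of 0.05 and the 2 with the highest mean (for other cell types, the calls and the highest gene). Symbols absent from the table were matched by RefSeq synonyms, which left out Hba-a1 and Ahsp. Likeness between genes over hearts was not computed.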

Additional observations from a re-analysis of the deposited data

How the results depend on the processing

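No paired analysis was possible because the table gives genotype means and coefficients of variation, which carry no replicate numbers, and no heart could be left out for the same reason. Under the 9 alternatives run, 0 of the 10 members and 0 of their 23 rows passed, with adjusted P values of the members of 0.087 or more. In them 4 members had an unadjusted P value under 0.05 in each alternative except Welch's test and centring, with 2 each. Apln fell under the filter of 5 RPKM over all hearts. Setting the median log2 ratio of all rows to 0 (centring) turned the log2 difference of Emcn from 0.01 to -0.032, lowered that of Plvap from 0.07 to 0.03 and left 8 members with the higher mean in Dio3-/- hearts. The 703 rows called over the whole table became 431 without an expression filter, 319 with 1 row per gene, 394 after centring, 414 with each coefficient of variation raised by its rounding error of 0.005, and 69 with Welch's test. The 6 companion calls became 3 after centring (Vegfa, Ptprb and Aqp1) and 1 with Welch's test (Vegfa, adjusted P = 0.0491). Hapln1 and Nts passed in 4 of 9 alternatives and Car4 in 6 of 8. The 4 calls in lists of other cell types became 0 with Welch's test (17 unadjusted). Of the genes of all vessels, 12 had an unadjusted P value under 0.05 by Welch's test, and Ptprb had an adjusted P of 0.0705. Over all genes tested, Welch's test gave such an unadjusted P value for 2394 of 14657.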

Other observations

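The genes below fell outside the rule for named genes and were picked after their values were seen. Cd34, a sialomucin of endothelium and of blood progenitors, had 39.2 RPKM ± 1.96 (SD, n = 4) in Dio3+/+ and 45.6 RPKM ± 1.37 (SD, n = 4) in Dio3-/- hearts, a log2 difference of 0.22 ± 0.05 (SE, adjusted P = 0.0554). Tmem204 and Myct1, also of the list for all vessels, had log2 differences of 0.28 ± 0.07 (SE, adjusted P = 0.0751) and 0.31 ± 0.08 (SE, adjusted P = 0.0851). Tal1 and Lyl1, transcription factors shared by endothelium and blood cells, had the lowest values of the transcription factor list, with log2 differences of -0.96 ± 0.28 (SE, adjusted P = 0.106) and -0.58 ± 0.15 (SE, adjusted P = 0.0781). They had the direction of the red cell and platelet lists, whose part in these values was not tested.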
